A study of Mus musculus with 4 samples.

Results

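The S100 genes listed for this comparison are S100a1, S100a4, S100a6, S100a8, S100a9, S100a10, S100a11 and S100a13, 8 members of a family of small calcium-binding proteins. They were read in CD8α+ dendritic cells of the mouse spleen, set against CD8α− dendritic cells of the same organ. A probe set, the group of short probes that an Affymetrix array reads as 1 value, was taken as a member when the platform annotation gave it exactly 1 gene symbol and that symbol was on the list. This rule found 10 probe sets of 7 genes among the 45037 probe sets that are not controls. S100a11 had 1 probe set, which carries 3 symbols, a pseudogene's among them, so S100a11 is not reported. Of the 10 probe sets, 9 passed the filter on dim signals and were tested, and these cover all 7 genes.

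Both groups were C57BL/6 mouse spleen dendritic cells, with 2 arrays of CD8α+ cells and 2 arrays of CD8α− cells and no treatment or genetic change named in the labels. The isolation of the cells and any pooling of mice are not stated in the labels used here. Since no label ties an array to a mouse of its own, the p-values measure only the spread between these arrays, which may be technical. The number of arrays limits the precision of each value below.

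S100 proteins bind calcium through paired EF-hand loops, mostly act as dimers, and change shape on binding so that they can hold a target protein. Inside cells they bind cytoskeletal, membrane and nuclear partners. S100A8 and S100A9, which pair as calprotectin, are also released and act as alarm signals through TLR4 and the receptor RAGE, and they are best known as abundant proteins of neutrophils and monocytes. Most genes of the family lie in a cluster, and in the RefSeq table of the mouse assembly GRCm38.p6 all 8 listed genes were on chromosome 3. Their order there was S100a1, S100a13, S100a4, S100a6, S100a8, S100a9, S100a11 and S100a10, with other S100 genes between some of them.

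The promoters of S100a4 and S100a6, which stand close together in the cluster, and of the neighbours S100a8 and S100a9 are shown. The first pair was picked because the genes parted in direction from the CD8α+ mean on CD8α− replicate 2. On CD8α− replicate 1 both stood above that mean. The second pair was picked because it had the closest profiles of any members. Each sequence runs 5′ to 3′ on the gene's strand from 250 bases before to 30 bases after the RefSeq start in GRCm38.p6, and capitals mark TATAAA, the core letters of a TATA box. S100a4 is chr3:90603520-90603799 on the plus strand, S100a6 is chr3:90612644-90612923 on the plus strand, S100a8 is chr3:90668821-90669100 on the plus strand and S100a9 is chr3:90695692-90695971 on the minus strand.
S100a4: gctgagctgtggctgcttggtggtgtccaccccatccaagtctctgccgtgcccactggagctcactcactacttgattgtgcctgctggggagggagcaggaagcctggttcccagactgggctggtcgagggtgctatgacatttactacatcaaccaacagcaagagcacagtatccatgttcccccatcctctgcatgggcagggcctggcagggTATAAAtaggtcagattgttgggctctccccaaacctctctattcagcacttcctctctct
S100a6: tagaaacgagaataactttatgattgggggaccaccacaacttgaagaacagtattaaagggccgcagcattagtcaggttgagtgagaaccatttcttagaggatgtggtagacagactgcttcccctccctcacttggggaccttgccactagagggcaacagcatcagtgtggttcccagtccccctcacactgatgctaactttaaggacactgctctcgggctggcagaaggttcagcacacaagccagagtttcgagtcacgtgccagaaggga
S100a8: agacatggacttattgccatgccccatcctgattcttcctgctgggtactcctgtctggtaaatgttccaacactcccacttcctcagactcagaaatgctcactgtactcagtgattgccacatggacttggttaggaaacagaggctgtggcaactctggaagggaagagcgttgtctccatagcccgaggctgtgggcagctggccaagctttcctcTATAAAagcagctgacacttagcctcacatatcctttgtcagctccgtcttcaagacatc
S100a9: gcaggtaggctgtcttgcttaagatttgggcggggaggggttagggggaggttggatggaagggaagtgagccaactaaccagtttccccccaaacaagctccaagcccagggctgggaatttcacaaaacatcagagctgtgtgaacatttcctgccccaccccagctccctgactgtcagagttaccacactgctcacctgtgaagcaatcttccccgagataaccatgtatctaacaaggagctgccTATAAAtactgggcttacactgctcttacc

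TATAAA began 31 bases before the start in S100a4, 30 bases before it in S100a8 and at base 1 after it in S100a9, and S100a6 did not hold these letters in its window. RefSeq promoter entries matched 7 of the 8 genes by symbol (S100a10 had none), and 3 of the 7 held TATAAA on either strand, against 13.1% of 32817 promoter windows of the same length. The C/EBP-like letters TTNNGNAA, named after a factor family of myeloid cells, stood in 2 of the 7, S100a8 and S100a9, against 39.2% of all windows. The purine box GAGGAA, read by ETS factors, stood in 3 (S100a4, S100a8 and S100a11) against 26%. The AP-1 letters TGANTCA stood in 1 (S100a11) against 7.47%. A spaced IRF element was in 0 against 3.27%, and a loose NF-kB pattern in 5 against 48.9%. All motifs were searched on both strands, and the S100a1 and S100a13 matches to the NF-kB pattern lie in bases that both windows hold. S100a1 and S100a13 lie head to head on opposite strands, and their windows share 164 bases. These matches describe letters only.

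The arrays were matched by quantile normalization, and signals are given on that scale unless called deposited. The highest Bacillus spike control of each array, taken as its background, read 30.8 and 21.8 on CD8α+ replicates 1 and 2 and 28.3 and 34.5 on CD8α− replicates 1 and 2. Cd8a, which defines the groups, read 2014 and 2335 on CD8α+ replicates 1 and 2, against 15.2 and 27 on CD8α− replicates 1 and 2, as the labels state. CD8α− replicate 2 stood apart before any S100 gene was considered. Its deposited signals had the lowest trimmed mean, 48.7 against 106 to 127 on the other arrays, and its 3′ Gapdh control read 10.7 times its 5′ Gapdh control, against ratios of 1.53 to 2.02 on the others. The β-actin controls went the other way, with a ratio of 0.759 on that array against 1.62 to 1.69 on the others. The CD8α+ arrays differed from each other by over 2-fold in 8.47% of tested probe sets, and the CD8α− arrays in 32.2%. S100 results are therefore given against each CD8α− array as well as against both.

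Of the S100 genes tested, S100a4 differed most between the populations, with both CD8α+ arrays below both CD8α− arrays. S100a8, S100a9 and S100a10 were also dimmer in both CD8α+ arrays than in either CD8α− array, by smaller amounts. S100a6 and S100a13 had CD8α− arrays on both sides of the CD8α+ arrays, and S100a1 was read near background. With limma, 0 of the 9 tested probe sets had an adjusted p under 0.05, and 2 of the 9, those of S100a4 and S100a8, had an unadjusted p under 0.05. Over the whole array the shares were 0% and 15.5% of 22519 tested probe sets, so 2 of 9 is a small count to set against a background share of that size. Both were lower in CD8α+ cells, which 7.79% of all tested probe sets were at that p, and none was higher, which 7.75% were. The populations did not overlap on 7 of the 9, 6 of them dimmer and 1 brighter in CD8α+ cells, where 52.3% of all tested probe sets did not overlap, 26.2% of all being dimmer and 26.1% brighter. By gene, on the probe set that stands for each, 2 of the 7 were lower and 0 higher at an unadjusted p under 0.05, against 8.82% and 7.13% of tested genes, and 5 of the 7 did not overlap, against 53.9%. The median over the 7 genes was -0.62, and -0.02 over all 10532 tested genes. Each difference below is the CD8α+ mean minus the CD8α− mean of log2 signals, with limma's standard error after the ± sign and n = 2 arrays in each group.

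**Figure D1:**
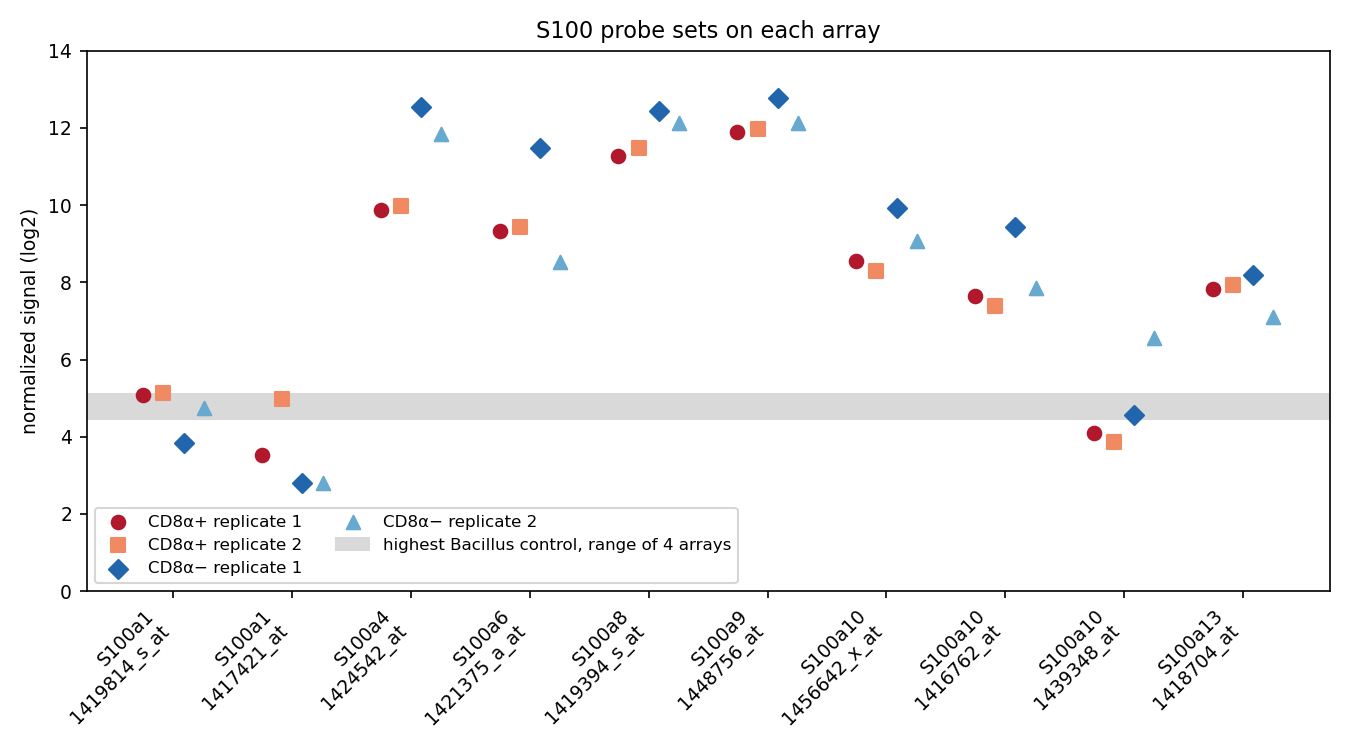
Normalized log2 signal (vertical axis) of the 10 S100 probe sets (horizontal axis) on each of the 4 arrays, CD8α+ in red and CD8α− in blue, 1 point per array, with the grey band for the range of the highest Bacillus control over the arrays. The 7 probe sets that clear the background on every array lie well above the band, and on 5 of these 7 both red points lie under both blue points.

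S100a8 and S100a9 encode the subunits of calprotectin. On 1419394_s_at, S100a8 read 2487 and 2852 on CD8α+ replicates 1 and 2, against 5542 and 4465 on CD8α− replicates 1 and 2. Both CD8α+ arrays were below both CD8α− arrays, and the gap between the groups was wider than the gap within either. The difference was -0.90 ± 0.33 (limma unadjusted p = 0.0450, adjusted p = 0.311), which is 1.87-fold brighter in CD8α− cells. The ending _s_at marks a probe set that can read more than 1 transcript, and the annotation names S100a8 alone.

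On 1448756_at, S100a9 read 3797 and 4025 on CD8α+ replicates 1 and 2, against 6984 and 4517 on CD8α− replicates 1 and 2. The groups did not overlap, but CD8α− replicate 2 stood only 1.16-fold above the CD8α+ mean, where CD8α− replicate 1 stood 1.79-fold above it. The difference was -0.52 ± 0.37 (limma adjusted p = 0.521). S100a8 and S100a9 had the smallest distance of any pair of member genes in their profiles over the 4 arrays, 0.45 in log2 units after centring each gene, with 0.82 for the next pair, S100a9 and S100a13. Genes outside the family lay nearer to each of them, the nearest at 0.04 from S100a8 and at 0.04 from S100a9. This is a description of 4 arrays.

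On the scale as deposited, where the median probe set stood 0.63 higher in CD8α+ cells, the S100a8 difference was -0.24 and the S100a9 difference turned to 0.11. Relative to that median they were -0.87 and -0.52, close to the values after matching the arrays. The deposited S100a8 signals were 3233 and 3706 on CD8α+ replicates 1 and 2, against 5653 and 2948 on CD8α− replicates 1 and 2, so the groups overlap without matching. The S100a8 unadjusted p was no longer under 0.05 on the deposited scale (0.689), when unlogged signals were matched (0.0524), with the replicate block (0.109), without CD8α+ replicate 1 (0.301) or without CD8α+ replicate 2 (0.211).

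Calprotectin is abundant in neutrophils and monocytes, so markers of those cells are given beside it. Of 18 neutrophil markers listed, 15 were on the array with a symbol of their own and 13 were tested. Of the 13, 8 were lower at an unadjusted p under 0.05 and 0 higher, with a median of -1.13, where 8.82% of all tested genes were lower at that p and 16% passed it in either direction. The summed signal of the 13 was 2667 and 2693 on CD8α+ replicates 1 and 2, against 6637 and 8746 on CD8α− replicates 1 and 2. Il1r2, a decoy receptor of interleukin-1, made up most of that sum, with 1493 and 1508 on CD8α+ replicates 1 and 2, against 3630 and 4757 on CD8α− replicates 1 and 2. Camp, the neutrophil granule peptide cathelicidin, read 236 and 254 on CD8α+ replicates 1 and 2, against 940.1 and 1513 on CD8α− replicates 1 and 2 (-2.28 ± 0.38). Lcn2, a granule protein that binds bacterial siderophores, differed by -1.70 ± 0.37. Ceacam10 went the other way (0.78 ± 0.43), with neither CD8α− array above background, and Csf3r, Cxcr2 and Chil1 overlapped between the populations. Elane, neutrophil elastase, was not above background on any array, and Ly6g was not analysed here. Of the 13 monocyte markers on the array 12 were tested, and 5 of these were lower and 0 higher at an unadjusted p under 0.05, with a median of -1.17. Their summed signal was 3264 and 3094 on CD8α+ replicates 1 and 2, against 5280 and 5644 on CD8α− replicates 1 and 2. Csf1r, the receptor of the macrophage growth factor, gave -2.88 ± 0.35, and it is counted among the markers of type 2 dendritic cells as well. The chemokine receptor Cx3cr1 was above background on CD8α− replicate 2 only, so its difference is not given. Plac8 read higher in CD8α+ cells (0.82 ± 0.57), and Fn1 and Treml4 overlapped. Il1r2, Ceacam10, Csf3r, Cxcr2, Chil1, Plac8, Fn1 and Treml4 were named with their values seen. None of these markers passed an adjusted p of 0.05 with limma. On the deposited scale the neutrophil count was 1 of 13 and the monocyte count 2 of 12. There 12.3% of all tested probe sets passed that unadjusted p in either direction, against 15.5% in the main setting. By direction, 454 of the 22526 tested there were lower and 2310 higher. In the main setting 1754 of 22519 were lower and 1746 higher. Both marker counts also changed with single arrays left out, and so did the share of all tested probe sets. In bulk RNA, fewer cells of a type and less RNA per cell cannot be told apart, and the part of neutrophils or monocytes in the S100a8 and S100a9 signals was not tested.

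S100a4 binds non-muscle myosin and is known from motile cells, fibroblasts and myeloid cells. On 1424542_at it read 942 and 1008 on CD8α+ replicates 1 and 2, against 5992 and 3651 on CD8α− replicates 1 and 2. The groups were far apart beside the spread within either, since the CD8α− arrays differed by 1.64-fold. The difference was -2.26 ± 0.39, a signal 4.8-fold brighter in CD8α− cells, with an unadjusted p of 0.00297 and an adjusted p of 0.142 by limma. Only 1.29% of tested probe sets had a lower difference. CD8α− replicate 1 stood 6.15-fold and CD8α− replicate 2 stood 3.75-fold above the CD8α+ mean.

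S100a4 stayed lower in CD8α+ cells under each of the 14 alternatives run, between -2.62 and -1.43. Changing the filter, the intensity trend or the replicate block leaves this difference as it is. Leaving out 1 array cannot turn groups that do not overlap. The direction could therefore turn only where signals were rescaled, normalized again or logged without the floor. The adjusted p was 0.0440 without CD8α− replicate 1, a fit that takes its spread from the close CD8α+ pair, and 0.967 without CD8α+ replicate 1, a fit that takes it from the CD8α− pair. The value of -1.43 is that of the deposited scale, and it is -2.06 relative to the median probe set there, with an unadjusted p of 0.0772. The genes with the profile most like that of S100a4 over the 4 arrays, by the smallest Euclidean distance between centred log2 signals, were Gab1, a docking protein of growth factor signalling, Il21r (0.21), the interleukin-21 receptor, and Ffar2 (0.23), a receptor of short-chain fatty acids. Gab1 was not above background on either CD8α+ array, so its distance is not given. For S100a8 these genes were Cd99 (0.04), Jade2 (0.09) and Stap2 (0.11).

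S100a6, or calcyclin, lies beside S100a4 with only S100a5 between them, and its readings split the CD8α− arrays. On 1421375_a_at it read 648 and 688 on CD8α+ replicates 1 and 2, against 2846 and 372 on CD8α− replicates 1 and 2. CD8α− replicate 1 stood 4.26-fold above the CD8α+ mean and CD8α− replicate 2 stood below it, at 0.557 of it. The difference over both was -0.62 ± 1.03 (limma adjusted p = 0.782). The gap within the CD8α− group, 7.65-fold, was larger in that direction than for 98.3% of tested probe sets, and it was 17.1-fold on the deposited scale. The direction turned to 0.84 without CD8α− replicate 1 and was -2.09 without CD8α− replicate 2. It also turned on the deposited scale, to 0.39, which is -0.24 relative to the median probe set there. The arrays therefore gave no single direction for S100a6, and the part of the low signal of CD8α− replicate 2, or of its control ratios, in this split was not tested.

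S100a10, also called p11, does not respond to calcium and joins annexin A2 in a complex that gathers plasminogen at the cell surface. It was read by 3 probe sets. On the probe set that stands for the gene, 1416762_at, it read 200.2 and 168 on CD8α+ replicates 1 and 2, against 687 and 233 on CD8α− replicates 1 and 2. On 1456642_x_at, where the ending marks probes that can bind other transcripts, it read 377 and 314 on CD8α+ replicates 1 and 2, against 974 and 537 on CD8α− replicates 1 and 2. Both CD8α+ arrays were below both CD8α− arrays on each, with CD8α− replicate 1 the brightest.

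The S100a10 differences were -1.12 ± 0.61 (adjusted p = 0.432) and -1.07 ± 0.43 (adjusted p = 0.338) by limma, a close pair of values. Against CD8α− replicate 2 alone they were -0.34 and -0.64, and against CD8α− replicate 1 alone -1.90 and -1.5. On the deposited scale, where the median probe set stood 0.63 higher in CD8α+ cells, they were -0.16 and -0.08, or -0.79 and -0.71 relative to that median. The third probe set, 1439348_at, read 17 and 14.6 on CD8α+ replicates 1 and 2, against 23.9 and 94.8 on CD8α− replicates 1 and 2, and was above background on CD8α− replicate 2 only. Its fitted difference of -1.59 ± 0.73 rests on that 1 array and no fold is given.

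S100a13 takes part in the release of FGF1 and interleukin-1α, proteins that lack a secretion signal. On 1418704_at it read 226 and 245 on CD8α+ replicates 1 and 2, against 293 and 138 on CD8α− replicates 1 and 2. As for S100a6, the CD8α− arrays lay on both sides of the CD8α+ arrays. The difference was 0.23 ± 0.48 (limma adjusted p = 0.827), and it turned to -0.32 without CD8α− replicate 2.

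S100a1, best known as a regulator of calcium release in heart muscle, was the member read near background. Its tested probe set 1419814_s_at read 34.0 and 35.2 on CD8α+ replicates 1 and 2, against 14.4 and 26.9 on CD8α− replicates 1 and 2. Both CD8α− arrays were not above background there, and the 34.0 of CD8α+ replicate 1 lay under the CD8α− replicate 2 background of 34.5. On the quantile-normalized scale CD8α+ cells were at least 1.11-fold brighter, a bound that was not computed on other scales. The fitted difference was 0.82 ± 0.43 (limma adjusted p = 0.421). That difference was 0.05 when arrays were scaled to a common trimmed mean and 0.23 with median centring. The untested probe set 1417421_at read 11.5 and 31.7 on CD8α+ replicates 1 and 2, against 1.15 and 3.70 on CD8α− replicates 1 and 2, and exceeded background on CD8α+ replicate 2 only. With no CD8α− array above background, S100a1 has no measured profile over the 4 arrays, and no genes are named for likeness to it.

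**Figure D2:**
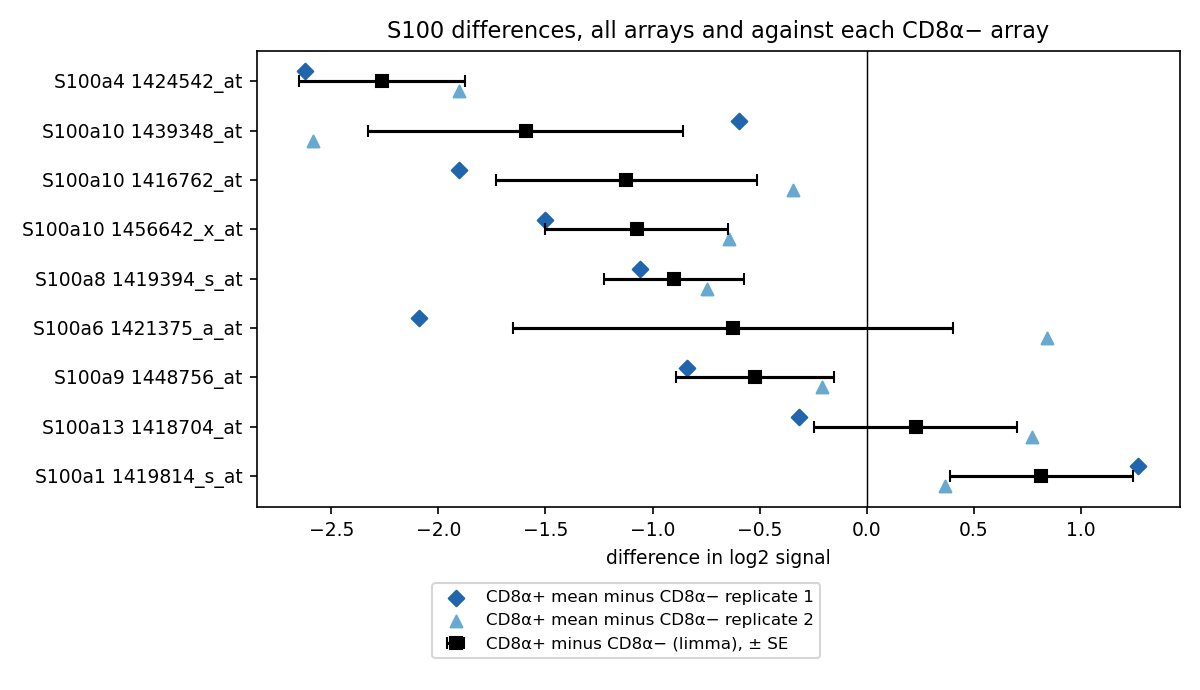
Difference in log2 signal, CD8α+ minus CD8α− cells (horizontal axis), for the 9 tested S100 probe sets, ordered by size. Black squares are limma estimates over all 4 arrays with the standard error as bars, dark diamonds set the CD8α+ mean against CD8α− replicate 1 and light triangles set it against CD8α− replicate 2. S100a6 runs from -2.09 to 0.84 between the CD8α− arrays, while S100a4 stays at -2.62 and -1.91.

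A further list held 10 genes, S100pbp and S100 genes outside the 8. Of these, 7 had a probe set of their own, 4 were not above background on any array, and 2 were tested, S100a16 and S100pbp. S100a16 read 13.3 and 9.26 on CD8α+ replicates 1 and 2, against 32.1 and 62.7 on CD8α− replicates 1 and 2. The CD8α+ arrays were not above background, so CD8α− cells were at least 1.73-fold brighter, with a fitted difference of -2.02 ± 0.48 and an adjusted p of 0.202 by limma. S100pbp, which encodes an S100P-binding protein, gave 0.77 ± 1.10, with 182 and 195 on CD8α+ replicates 1 and 2, against 332 and 37.1 on CD8α− replicates 1 and 2. It repeated the split of S100a6, and its direction turned to -0.81 without CD8α− replicate 2.

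Receptors of released S100 proteins gave no common direction. Of 7 receptors 6 were tested, and 1 was higher and 1 lower at an unadjusted p under 0.05, with a median of 0.43, where 7.13% of all tested genes were higher and 8.82% lower at that p. Embigin, a receptor of S100A8 and S100A9 on skin cells and encoded by Emb, read 133 and 104 on CD8α+ replicates 1 and 2, against 348 and 331 on CD8α− replicates 1 and 2 (-1.53 ± 0.33, adjusted p = 0.183 by limma). Cd36, a scavenger receptor that also marks CD8α+ dendritic cells, gave 1.0 ± 0.36, Alcam gave -0.62 ± 0.32 and neuroplastin (Nptn), a receptor of S100A8, gave 1.73 ± 0.99. Nptn read 956 and 886 on CD8α+ replicates 1 and 2, against 741 and 104 on CD8α− replicates 1 and 2, so its difference rests mainly on CD8α− replicate 2. Tlr4 read 34.5 and 33.7 on CD8α+ replicates 1 and 2, against 25.3 and 22.5 on CD8α− replicates 1 and 2, the CD8α− arrays being not above background, and Ager, the gene of RAGE, was not above background on any array. Tlr4 and Ager are named for their role and were chosen with their values seen.

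Among 13 tested intracellular partners, 1 was higher and 3 lower at an unadjusted p under 0.05, with a median of 0.08, beside shares of 7.13% and 8.82% over all tested genes. Anxa2, the partner of S100a10, read 2124 and 2408 on CD8α+ replicates 1 and 2, against 4071 and 5514 on CD8α− replicates 1 and 2. Its difference, -1.07 ± 0.34 (adjusted p = 0.277 by limma), lay in the same range as those of S100a10 over both CD8α− arrays. Within the CD8α− group, Anxa2 was brighter on replicate 2. S100a10 was brighter on replicate 1 on 1416762_at and 1456642_x_at. On 1439348_at, above background on CD8α− replicate 2 only, S100a10 was brighter on replicate 2. Cybb, the catalytic subunit of the NADPH oxidase to which calprotectin delivers arachidonic acid, differed by -2.73 ± 0.32, and the crosslinking enzyme Tgm2 by -3.18 ± 0.40 (adjusted p = 0.115 for each by limma). The phosphatase Ppp5c gave 1.36 ± 0.43, with CD8α− replicate 2 not above background. Cacybp, the calcyclin-binding protein (0.08 ± 0.31), and Myh9, the myosin heavy chain bound by S100A4 (-0.23 ± 0.33), were named with their values seen, and their populations overlapped.

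In the plasmin system, on which S100A10 acts, 3 of 7 genes were tested and 1 was lower at an unadjusted p under 0.05, as were 8.82% of all tested genes. Plaur, the urokinase receptor, read 120 and 104 on CD8α+ replicates 1 and 2, against 527 and 349 on CD8α− replicates 1 and 2 (-1.94 ± 0.37, adjusted p = 0.160 by limma). The plasminogen receptor gene Plgrkt (-0.25 ± 0.37) and Serpinb2 (0.11 ± 0.31) lay near 0, and both changed sign under other scalings. Serpinb2 was not above background on either CD8α− array.

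**Figure D3:**
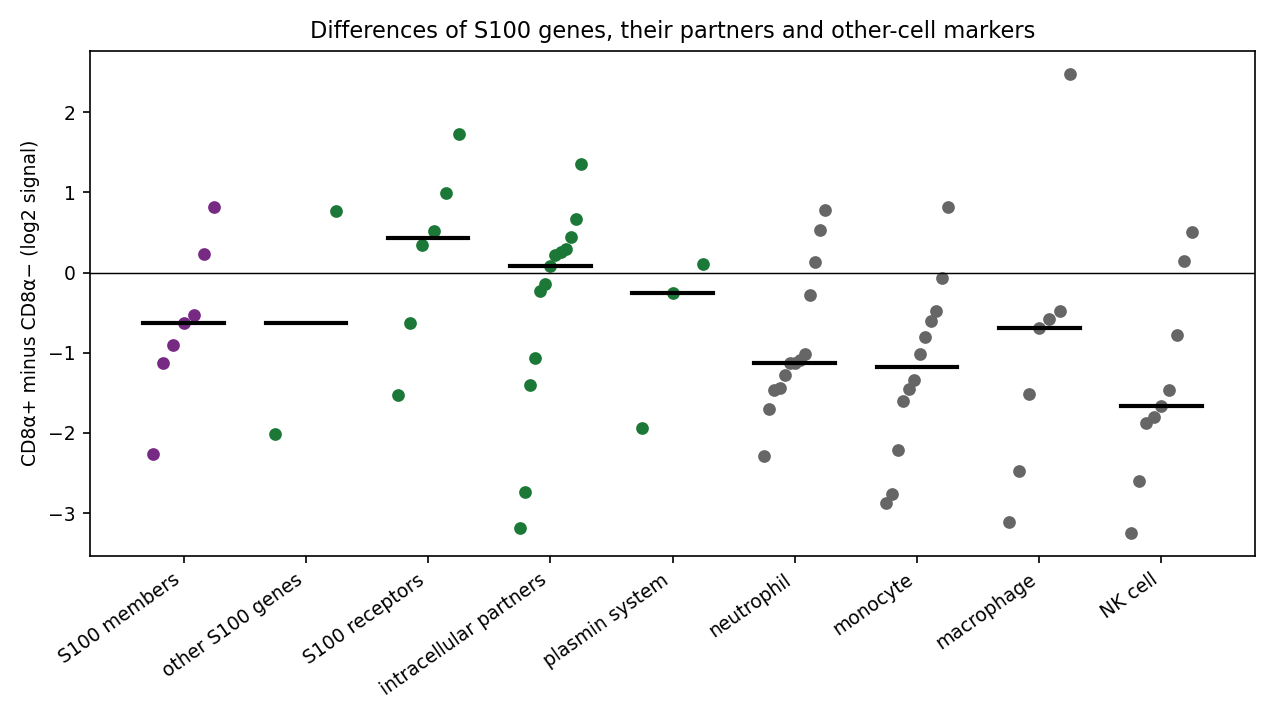
Difference in log2 signal, CD8α+ minus CD8α− cells (vertical axis), of the tested genes in each list (horizontal axis), 1 point per gene, with a bar for the median. S100 genes are purple, genes that interact with S100 proteins or belong to the same family green and markers of other cell types grey; the S100 median of -0.62 lies between those of the receptors (0.43) and of the neutrophil markers (-1.13).

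Markers of other cells that spleen preparations can hold were counted at an unadjusted p under 0.05, where 7.13% of all tested genes were higher and 8.82% lower. Of 7 macrophage markers tested, 1 was higher (Vcam1, 2.48) and 3 lower. The macrophage marker C1qb was not above background on either CD8α+ array, and CD8α− cells were at least 4.66-fold brighter. C1qb was read on a probe set ending in _x_at. C1qa was above background on CD8α− replicate 2 only and C1qc on no array, each named with its value seen. Of 9 NK cell markers 0 were higher and 4 lower, with Klra8 at -3.24 and Il2rb at -2.60, both of them above background on 1 of the 2 CD8α+ arrays. Klra8 was read on a probe set ending in _x_at. Klrk1 went the other way (0.50 ± 0.32), and Klre1 and Prf1 overlapped between the populations, each named with its value seen. Of 8 T cell markers 1 was higher and 0 lower. That marker, Cd6, was not above background on either CD8α− array and its CD8α+ signal was higher by at least 1.68-fold, and Il7r, which did not pass, gave -1.30. Of 5 B cell markers 1 was higher (Ms4a1, 1.45) and 1 lower (Blk, -1.90). Of 7 plasmacytoid dendritic cell markers 0 were higher and 1 lower (Tcf4, -1.06, named with its value seen), while Ccr9 at 2.21 and Klk1 at -1.34 did not pass, each with 1 array not above background. Of 4 erythroid markers 0 were higher and 1 lower (Car2, -1.11), while Ermap at -1.26 did not pass, with CD8α+ replicate 1 not above background. The T cell, plasmacytoid and erythroid lists each rest on 1 marker past that p. Markers of type 1 conventional dendritic cells, to which CD8α+ cells belong, were higher in 11 of 13 and lower in 0. The 11 include Cd8a, which defines the groups, and Cadm1 at 5.54, with CD8α− replicate 2 not above background for Cadm1. Markers of type 2 cells were higher in 0 and lower in 6 of 9. Among them were Cd7 at -2.95 and Cd4 at -3.10, the last with CD8α+ replicate 1 not above background. The part of these cells in the S100 values was not tested.

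**Figure D4:**
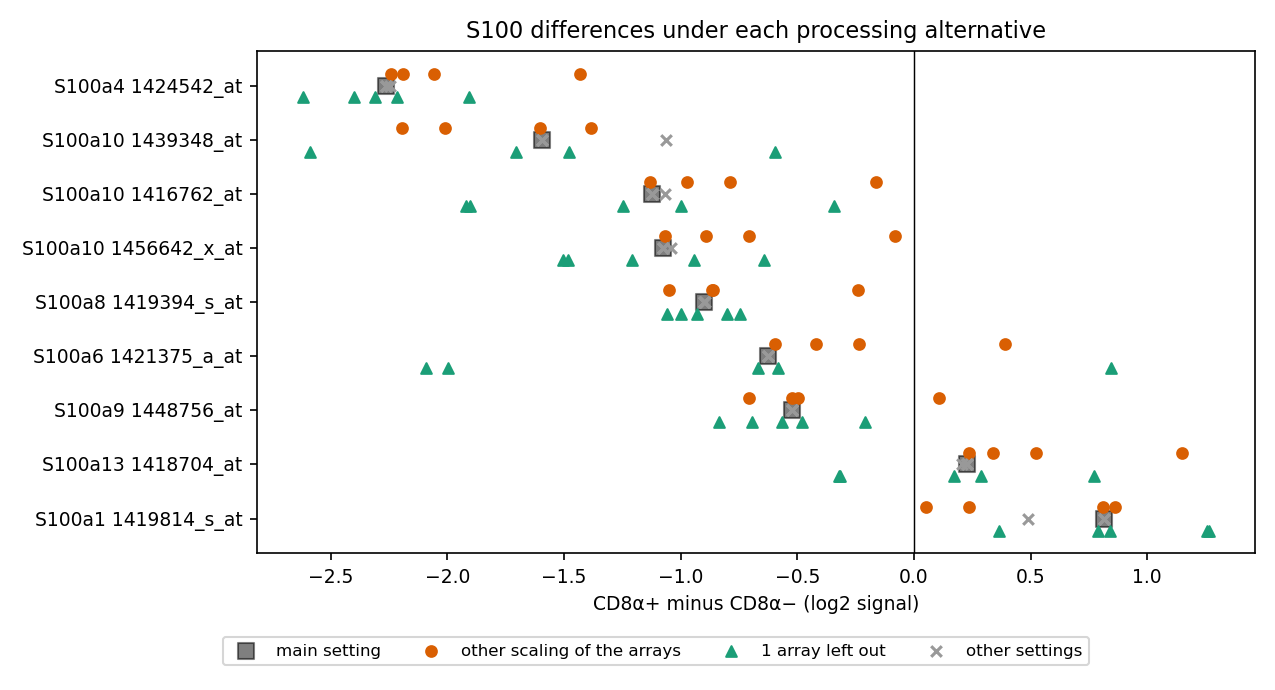
Difference in log2 signal, CD8α+ minus CD8α− cells (horizontal axis), of the 9 tested S100 probe sets under each processing alternative, with the main setting as a grey square, other scalings as circles, settings that leave out 1 array as triangles and other settings as crosses. S100a4, S100a8, S100a10 and S100a1 keep their side of 0 throughout, and S100a6, S100a9 and S100a13 cross it. The filter, trend and block settings among the crosses cannot move a difference.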

How the data were processed

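Each population was measured on 2 Affymetrix Mouse Genome 430 2.0 arrays. The authors deposited intensity values, 1 MAS5 signal per probe set on a linear scale (MAS5 per the submitters' processing notes, Microarray Suite 5.0 and GeneSpring per the series' design text), with no detection calls. No source used here states a scaling target, and the sources differ on how RNA was extracted and labelled. Log2 signals were quantile normalized, raised to a floor of 6.99, the mean 25th percentile, and tested where the mean signal was at or above the median, 23.0. Without matching, a dim array would pass for lower expression. Two-sided p-values came from lmFit and eBayes of limma 3.58.1, run in R 4.3.3, adjusted by Benjamini-Hochberg across every tested probe set, with 2 residual and 2.48 prior degrees of freedom. The test was also run on simulated data, whose outcome is not reported here and is not used as support. No exact permutation test was used, since 2 against 2 arrays cannot give a two-sided p below 0.333. Background was the highest of 27 Bacillus controls per array. Where no array of 1 group exceeds it, the fold is a lower bound, written "at least": each dim array counts at its background or its own signal, whichever is larger, and the bright mean is divided by their mean on the log2 scale. Of 45037 probe sets, 34945 had 1 symbol, 932 several and 9160 none. A gene was represented by its brightest tested probe set, leaving out names ending in _x_at where it had another. Named genes were all S100 members, at most 4 per partner list by p, the 2 with the widest difference per marker list, Cd8a, and the 3 nearest profiles of the 3 members with the smallest p, except S100a1, whose profile is not measured on both CD8α− arrays. The members and lists were chosen with earlier results of these data known. Alternatives changed the scaling, filter, floor, spread model, pairing and arrays used. Figures were drawn with Python 3.11.15 and matplotlib 3.10.9, and promoters come from RefSeq.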

Additional observations from a re-analysis of the deposited data

How the results depend on the processing

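Over the alternatives, 116 of 123 S100 differences kept their direction and their side of an adjusted p of 0.05 with limma. Alternatives that changed only the filter, the intensity trend or the replicate block leave each difference as it is. Their part of this count, and of that for the other named genes below, could not change direction. The 5 differences that changed direction were S100a6 on the deposited scale (0.39) and without 1 array (-2.09 to 0.84), S100a9 on the deposited scale (0.11), and S100a13 without CD8α− replicate 2 (-0.32 to 0.77 over the arrays left out, and -0.32 when the other arrays were normalized again). The remaining 2, S100a4 and S100a10 on 1439348_at, passed without CD8α− replicate 1. S100 probe sets called at an adjusted p numbered 0 in the main setting and 0 to 2 with 1 array left out, and probe sets over the whole array 0 and 0 to 2887, both upper values being those without CD8α− replicate 1. The whole-array count was 37 with a stricter filter, 60 with an intensity trend and 14 with a replicate block. S100 probe sets at an unadjusted p under 0.05 numbered 2, against 1 on the deposited scale or with unlogged signals matched, 1 to 7 with 1 array left out and 7 when normalized again without CD8α− replicate 2. S100 genes numbered 2, against 0 on the deposited scale, 1 with unlogged signals matched, 1 with the replicate block, 1 to 6 with 1 array left out and 6 when normalized again. Normalizing again and matching unlogged signals were chosen after seeing the data. With 1 array left out, the lone array is assumed to vary like the other population's pair. In those fits the share of all tested probe sets at an unadjusted p under 0.05 moved too. Compared with the main setting, that share rose without either CD8α− array, also when normalized again, and fell without either CD8α+ array. The S100 counts at that p moved the same way from the main setting, but not in step with the share. The S100 probe set count was largest without CD8α− replicate 2, and the whole-array share without CD8α− replicate 1. These fits leave 1 array in a group, and the changes are not read as specific to S100 genes. At an unadjusted p under 0.05, 1746 probe sets over the whole array were higher and 1754 lower, against 2310 and 454 on the deposited scale, 1280 and 3784 with a common trimmed mean and 1859 and 2858 with median centring.

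The titles number the arrays 1 and 2 in each population. Deviations of same-numbered arrays correlated at r = 0.0311 across probe sets, so the numbers were not taken as pairs, and the block changed no S100 call at an adjusted p.

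Of 33 other named genes, 442 of 450 differences kept their direction, and 24 passed an adjusted p of 0.05 that they missed in the main setting, most of them without CD8α− replicate 1. The exceptions were S100pbp without CD8α− replicate 2 (-0.81 to 2.35 over the arrays left out, and -0.83 when normalized again), Plgrkt on the deposited scale (0.75), with median centring (0.12) and without CD8α− replicate 1 (-0.57 to 0.057 over the arrays left out), and Serpinb2 with a common trimmed mean (-0.65), with median centring (-0.46) and without CD8α− replicate 1 (-0.013 to 0.23 over the arrays left out). The cause of these changes was not tested. Signals near background limit S100a1 and 1439348_at.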
